A study of Mus musculus with 3 samples.

Results

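The transition from G1 into S phase is driven by 3 D cyclins (Ccnd1, Ccnd2, Ccnd3), 2 E cyclins (Ccne1, Ccne2) and their kinases Cdk2, Cdk4 and Cdk6, and it is held back by the CDK inhibitors Cdkn1a (p21) and Cdkn1b (p27). These 10 genes were followed in mast cell progenitors (MCps) of WT mice and of p85α-/- mice, which lack a regulatory subunit of class IA PI3K encoded by Pik3r1. Members were taken by gene name, ignoring case, from the probes that were not array controls. This gave 19 of the 41174 probes on the array, with 1 to 3 probes for each of the 10 genes, and all 19 were tested.

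Low density mononuclear marrow cells from 3 independent mice of each genotype had been cultured in IL-3 (10 ng/mL) for 7 days. Cells positive for both KIT, the receptor of stem cell factor (SCF), and the IgE receptor were then sorted, and the sorted cells of both genotypes were given SCF (100 ng/mL) for 48 hours. There was no culture without SCF, so the values describe SCF-treated cells of 2 genotypes and not a response to SCF. The age of the mice is not given in the sources used here. Because few cells were collected, the cDNA went through global PCR amplification before it was labeled. Each of 3 dual-channel Agilent arrays held 1 WT culture in Cy3 and 1 p85α-/- culture in Cy5. The dyes were never swapped, so genotype and dye cannot be told apart on these arrays. All 3 arrays shared 1 slide.

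In G1, growth factor signals raise the D cyclins, which bind and activate CDK4 and CDK6. These kinases phosphorylate the retinoblastoma protein, E2F factors are released, and E2F induces the E cyclins, which activate CDK2 and carry the cell into S phase. p21 and p27 bind cyclin-CDK complexes and inhibit CDK2. PI3K acts on this module through AKT, which lowers the activity of FOXO factors, and Cdkn1b and Ccnd2 are known FOXO-regulated genes. In mast cells SCF activates PI3K through KIT and is a main signal for growth and survival.

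Levels are given as log2 normalized intensity, in the order of replicates 1, 2 and 3, and differences as log2 ratios within an array, p85α-/- over WT, mean ± SD over n = 3 arrays. A probe was said to pass when its mean ratio was at least 1.5-fold and its unadjusted p in limma was under 0.05, the size and p criteria stated for the study, here with limma's moderated test. The median scanned signal over 43379 spots lay between 71.5 and 141.2 for WT and between 206.6 and 517.3 for p85α-/-, and 16 of the 19 member probes were well above background in all 6 channels. No spot was saturated (0). Ratios of different arrays were nearly unrelated over all 41157 tested probes, with Pearson's r of 0.0088 for arrays 1 and 2, 0.172 for arrays 1 and 3 and -0.028 for arrays 2 and 3, a description across probes that share a scan and a normalization. A lower signal in a bulk culture can come from fewer cells that express the gene or from less RNA per cell, and these cannot be told apart.

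Of the 19 probes, 2 passed, both higher in p85α-/- MCps. One was the brightest Ccnd2 probe and the other was the brightest Cdk2 probe. Brightness was ranked over all 6 channels, so the high p85α-/- values of these probes counted in it. By the WT mean alone, the second Cdk2 probe was brighter than the first (7.51 against 6.95). The first and second Ccnd2 probes were nearly equal there (11.25 and 11.26). No member probe passed as lower (0). Among all tested probes 4.44% passed, 2.78% as higher and 1.66% as lower. No member reached an adjusted p under 0.05 with Benjamini-Hochberg adjustment in limma (0 of 19, lowest 0.908), and neither did any other probe on the array (0%). The unadjusted p was under 0.05 for the same 2 member probes. The mean log2 ratio was above 0 for 10 probes and below 0 for 9, where 44.8% of all tested probes were above 0. The median was 0.00092, against -0.05 over all tested probes. All 3 arrays gave 1 sign at 5 member probes, against 25.8% of all probes. Of these, 4 were above 0 and 1 below, against 12.5% and 13.3%. The 3 p85α-/- values all lay above the 3 WT values at 1 member probe, against 4.54% of all probes, and all below at 0 member probes, against 5.94%.

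**Figure D1:**
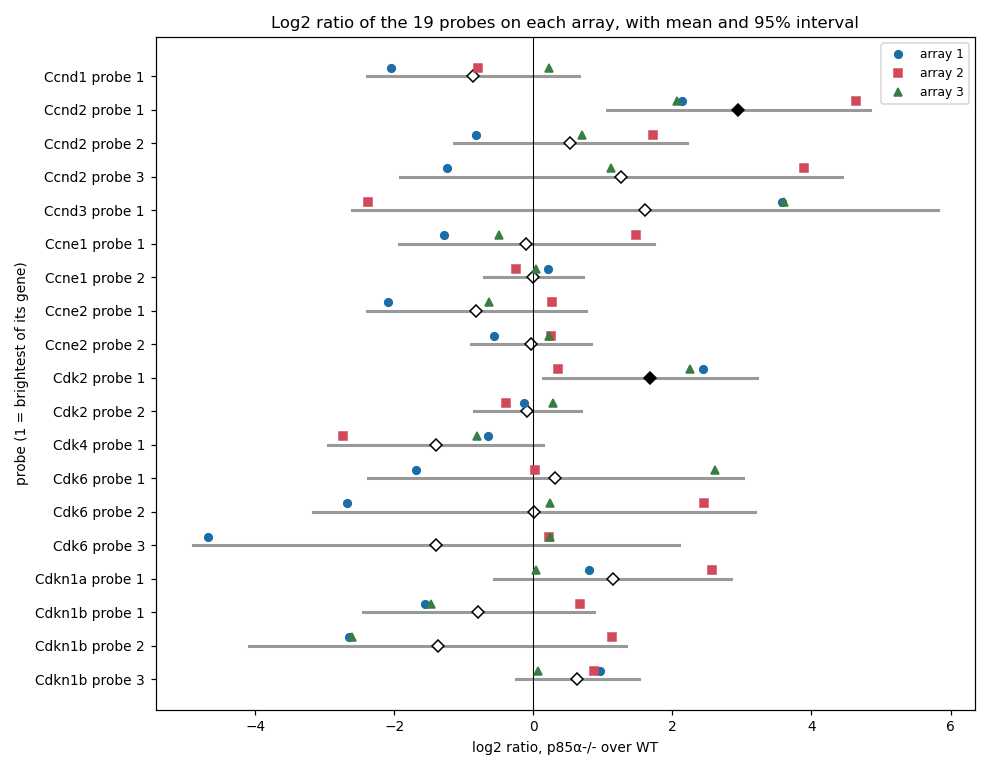
Log2 ratio of p85α-/- over WT (horizontal axis) for the 19 member probes (rows, probe 1 being the brightest of its gene) on each of the 3 arrays (coloured symbols), with the mean over arrays (diamond, filled where the probe passed) and its 95% interval (grey bar). The intervals of Ccnd2 probe 1 (1.06 to 4.84) and Cdk2 probe 1 (0.14 to 3.22) lay above 0, and those of the other 17 probes included 0.

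Among the D cyclins, Ccnd2 was the member with the largest difference at its brightest probe. Ccnd2 encodes cyclin D2, the D cyclin best known in hematopoietic and lymphoid cells. Its brightest probe, which the array's annotation places on chromosome 6 from 127154070 to 127154129, read 12.59, 8.60 and 12.57 in WT MCps and 14.72, 13.25 and 14.64 in p85α-/- MCps. Every p85α-/- culture was above every WT culture, and the WT culture of replicate 2 was far below the other WT cultures. The ratios were 2.13, 4.65 and 2.07, with a mean of 2.95 ± 1.47, or 7.73-fold. The unadjusted p in limma was 0.0131 and the adjusted p was 0.908. Without replicate 2 the mean ratio was 2.10, and under median centring it was 4.40. The probe no longer passed when the pairing by array was dropped, with an unadjusted p of 0.0517 in limma, or under the methods' t-test, whether paired by array or unpaired. An exact two-sided permutation test of 3 cultures against 3 cannot go below 0.1.

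The other 2 Ccnd2 probes did not repeat this separation of the genotypes. The second probe, on chromosome 6 from 127163669 to 127163728, read 11.75, 10.75 and 11.28 in WT and 10.93, 12.48 and 11.97 in p85α-/- MCps, with a mean log2 ratio of 0.53 ± 1.28. The third probe, from 127173178 to 127173237, read 12.26, 8.46 and 10.32 in WT and 11.02, 12.36 and 11.45 in p85α-/- MCps, with a mean of 1.26 ± 2.57. At both of these probes the ratio was below 0 on array 1 (-0.82 and -1.25) and above 0 on arrays 2 and 3, and the genotypes overlapped. Without replicate 2 their mean ratios were -0.06 and -0.06, and under median centring, an alternative normalization, they passed, at 1.61 and 2.32. All 3 Ccnd2 probes shared the largest ratio on array 2.

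Ccnd1 encodes cyclin D1, the D cyclin widely used outside the blood lineages. Its probe read 10.23, 8.52 and 7.78 in WT and 8.18, 7.73 and 8.01 in p85α-/- MCps. WT replicate 1 was the highest of the 6 cultures, and the genotypes overlapped. The ratios were -2.05, -0.79 and 0.23, a mean of -0.87 ± 1.14 (95% interval -2.39 to 0.65, adjusted p = 0.908 in limma). The mean was -0.28 without replicate 1, -1.42 without replicate 3 and -0.31 under median centring.

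Ccnd3, encoding cyclin D3, varied most strongly among the D cyclins. Its 1 probe, on chromosome 17 from 45735858 to 45735917, read 9.57, 13.43 and 8.37 in WT and 13.15, 11.05 and 11.97 in p85α-/- MCps. WT replicate 2 was the highest culture and the remaining WT cultures were the lowest. The ratios were therefore 3.58 and 3.60 on arrays 1 and 3 and -2.38 on array 2, with a mean of 1.60 ± 3.45 and a 95% interval from -2.61 to 5.82. The probe did not pass with all 3 arrays (adjusted p = 0.908 in limma). Without replicate 2 it passed, at 3.59, and without replicate 1 or 3 the mean was 0.61 or 0.60.

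**Figure D2:**
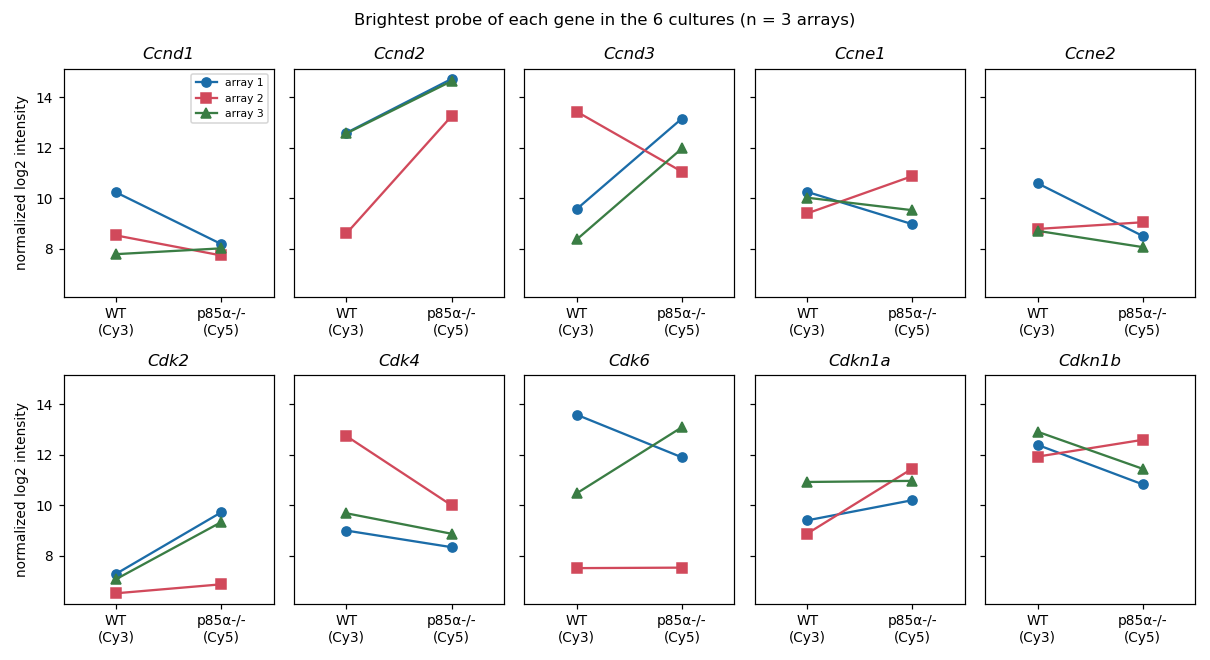
Log2 normalized intensity (vertical axis) of the brightest probe of each of the 10 genes in the WT culture (Cy3, left) and the p85α-/- culture (Cy5, right) of each array, with a line joining the 2 cultures of 1 array. The lines of Ccnd2, Cdk2 and Cdkn1a all slope upward and those of Cdk4 all slope downward, whereas Ccnd3 falls on array 2 (13.43 to 11.05) and climbs on arrays 1 and 3.

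The E cyclins, the CDK2 partners induced by E2F, did not pass at any probe. Ccne1, cyclin E1, has 2 probes that the annotation places at the same 24 bases of chromosome 7 (34990690 to 34990713). The brighter one read 10.25, 9.40 and 10.02 in WT and 8.97, 10.87 and 9.52 in p85α-/- MCps. The p85α-/- values lay on both sides of the WT values, and the mean ratio was -0.10 ± 1.42, which median centring turned to 0.55. At the second probe the ratios were 0.21, -0.25 and 0.04, a mean of 0.00092 ± 0.234 with a 95% interval from -0.71 to 0.71. On every array the 2 Ccne1 probes had ratios of opposite sign.

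Ccne2 encodes cyclin E2. Its brighter probe, on chromosome 4 from 11130171 to 11130230, read 10.59, 8.78 and 8.71 in WT and 8.50, 9.04 and 8.06 in p85α-/- MCps. As with Ccnd1, WT replicate 1 was the highest culture. The mean ratio was -0.82 ± 1.19 (95% interval -2.40 to 0.75), and the genotypes overlapped. The mean was -0.19 without replicate 1 and -1.37 without replicate 2. The second Ccne2 probe was dim, well above background on 1 of 3 arrays for WT and on 2 of 3 for p85α-/-, and its mean ratio was -0.03 ± 0.469. It turned to 0.09 under loess and to 0.08 with the scanner software's log ratio.

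Of the 3 kinases, Cdk2 was higher and Cdk4 lower in p85α-/- MCps on all 3 arrays at the probes described next, and only Cdk2 passed. CDK2 is the partner of the E cyclins. The brightest Cdk2 probe, on chromosome 10 from 128199926 to 128199985, read 7.28, 6.51 and 7.07 in WT and 9.71, 6.86 and 9.32 in p85α-/- MCps. The p85α-/- cultures of replicates 1 and 3 were well above all WT cultures, whereas replicate 2 lay within the WT range. WT was well above background on 2 of 3 arrays and p85α-/- on all 3. The ratios were 2.43, 0.36 and 2.26, a mean of 1.68 ± 1.15. No single fold is given, since the WT signal was not well above background on array 2. The unadjusted p in limma was 0.0389 and the adjusted p 0.908. The probe no longer passed without replicate 1 (1.31) or without replicate 3 (1.39), and without replicate 2 the mean was 2.35. Starting from the scanner software's processed signals or its log ratio gave larger means, 3.09 and 3.42. It did not pass under loess (1.71), median centring (1.73), without the pairing by array or under either form of the methods' t-test.

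The second Cdk2 probe, from 128205529 to 128205588 on the same chromosome, was nearly level. It read 7.61, 7.59 and 7.33 in WT and 7.47, 7.20 and 7.61 in p85α-/- MCps, a mean ratio of -0.08 ± 0.340 with a 95% interval from -0.85 to 0.68. Its sign turned under loess (0.0066) and median centring (0.04).

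Cdk4 encodes a kinase that pairs with the D cyclins and phosphorylates the retinoblastoma protein. Its 1 probe, on chromosome 10 from 126562389 to 126562448, read 8.99, 12.73 and 9.67 in WT and 8.33, 9.99 and 8.86 in p85α-/- MCps. It was the only member probe below 0 on every array, with ratios of -0.66, -2.74 and -0.81. Replicate 2 was the highest culture within each genotype, and the genotypes overlapped. The mean was -1.40 ± 1.16 (95% interval -2.95 to 0.14), a WT level 2.64-fold that of p85α-/- MCps. The probe did not pass, with an adjusted p of 0.908 in limma, and without replicate 2 the mean was -0.73.

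The promoters of Cdk2 and Cdk4 are shown because the Cdk4 probe and the brightest Cdk2 probe had ratios of opposite sign on all 3 arrays, which the second Cdk2 probe did not share. The sequences are the 250 bases before each gene's start in RefSeq on GRCm38.p6, written 5′ to 3′ on the strand of the gene, and 7 of the 10 members had an entry. Capitals mark the GC box GGGCGG, searched on both strands (CCGCCC on the other strand), and the palindromic E-box CACGTG, the sequence known to bind MYC with MAX.
Cdk2, chr10:128705052-128705301, minus strand: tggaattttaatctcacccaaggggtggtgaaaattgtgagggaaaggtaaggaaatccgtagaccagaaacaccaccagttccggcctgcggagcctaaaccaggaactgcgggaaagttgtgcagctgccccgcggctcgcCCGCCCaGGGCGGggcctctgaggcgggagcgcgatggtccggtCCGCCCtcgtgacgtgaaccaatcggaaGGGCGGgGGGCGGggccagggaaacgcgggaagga
Cdk4, chr10:127063285-127063534, plus strand: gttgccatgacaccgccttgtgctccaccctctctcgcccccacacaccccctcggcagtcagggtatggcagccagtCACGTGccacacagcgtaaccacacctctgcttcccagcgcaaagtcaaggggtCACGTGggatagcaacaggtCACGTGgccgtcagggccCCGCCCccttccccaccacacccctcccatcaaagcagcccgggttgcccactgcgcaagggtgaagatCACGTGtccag
The Cdk2 window held 5 GC boxes and 0 E-boxes, and the Cdk4 window held 1 GC box and 4 E-boxes. No marked motif overlapped another. Of 32851 mouse promoter windows of this length, 32.7% held the GC box letters and 6.02% the E-box letters. The match is a description of the sequence, and no factor's binding was measured.

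Cdk6 encodes the second kinase of the D cyclins, prominent in hematopoietic cells. The brightest of its 3 probes, on chromosome 5 from 3535293 to 3535352, read 13.58, 7.50 and 10.47 in WT and 11.89, 7.52 and 13.08 in p85α-/- MCps. Both cultures of replicate 2 were the lowest, and the WT values alone spanned 6.08 log2 units, the widest WT range among the members. The ratios were -1.69, 0.02 and 2.62, with a mean of 0.32 ± 2.17. The other Cdk6 probes were just as uneven. The second probe (3527675 to 3527734) had ratios of -2.68, 2.46 and 0.24, a mean of 0.01 ± 2.58. The third probe, annotated over a span from 3479226 to 3521510, had ratios of -4.68, 0.23 and 0.24, a mean of -1.40 ± 2.84, and WT was well above background on 2 of 3 arrays. On arrays 2 and 3 all 3 Cdk6 probes were above 0, and on array 1 all were below. Without replicate 1 the third probe was at 0.24, and without replicate 3 the brightest was at -0.83.

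Neither CIP/KIP inhibitor passed at any of its probes. Cdkn1a encodes p21, the p53-induced inhibitor of CDK2 complexes. Its probe, on chromosome 17 from 27293819 to 27293878, read 9.39, 8.87 and 10.91 in WT and 10.19, 11.44 and 10.96 in p85α-/- MCps. The p85α-/- value was above the WT value of its own array each time, but WT replicate 3 was above p85α-/- replicate 1. The ratios were 0.80, 2.58 and 0.04, a mean of 1.14 ± 1.30 with a 95% interval from -0.56 to 2.84 (adjusted p = 0.908 in limma). Under median centring the mean was 1.99 and the probe passed, and without replicate 2 the mean was 0.42.

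Cdkn1b encodes p27, the inhibitor that accumulates in resting cells and is degraded as cells enter S phase. Its brightest probe, on chromosome 6 from 134939519 to 134939578, read 12.39, 11.92 and 12.91 in WT and 10.82, 12.58 and 11.44 in p85α-/- MCps. Its mean ratio was -0.79 ± 1.26, which median centring turned to 0.33. The second probe (134937910 to 134937969) read 10.35, 7.34 and 9.89 in WT and 7.70, 8.48 and 7.28 in p85α-/- MCps, a mean ratio of -1.37 ± 2.18. Both probes were below 0 on arrays 1 and 3 (-1.56 and -1.47, -2.65 and -2.61) and above 0 on array 2 (0.66 and 1.14). Without replicate 2 both passed as lower, at -1.52 and -2.63. Without replicate 1 the means were -0.40 and -0.74, and without replicate 3 they were -0.45 and -0.76. The third Cdkn1b probe (134935407 to 134935465) had ratios of 0.96, 0.88 and 0.07, a mean of 0.63 ± 0.489 with a 95% interval from -0.24 to 1.51, and so lay above 0 on every array. The 3 probes of Cdkn1b thus did not share a sign.

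Ccnd1, Cdkn1a and the third Cdkn1b probe were each printed 10 times on an array, so the spread over spots of 1 labeled sample can be given beside the spread over arrays, which also holds that of culture, amplification and labeling. The SD of the log2 ratio over spots of 1 array lay between 0.0458 and 0.114. Over the 3 arrays the SD was 1.14 for Ccnd1, 1.30 for Cdkn1a and 0.489 for this Cdkn1b probe. The 10 Ccnd1 spots lay between -2.16 and -1.87 on array 1 and between 0.13 and 0.30 on array 3. Within an array, all spots of Ccnd1 had the same sign. For Cdkn1a on array 3 and Cdkn1b on array 3 the spots lay on both sides of 0, from -0.02 to 0.16 and from -0.06 to 0.26. An outlier flag removed 1 spot of Cdkn1a on array 2 and 1 spot of Cdkn1b on array 1.

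**Figure D3:**
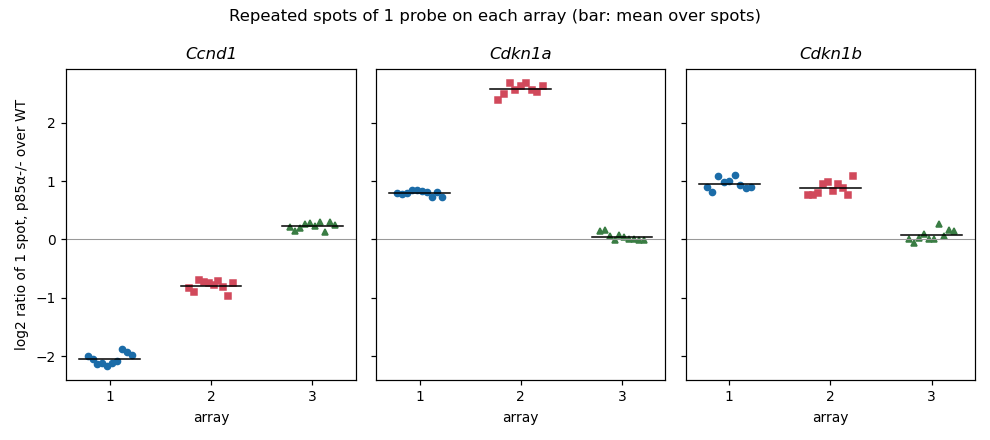
Log2 ratio of p85α-/- over WT (vertical axis) of each repeated spot (symbols) of the Ccnd1, Cdkn1a and Cdkn1b probes on the 3 arrays (horizontal axis), with the mean over spots as a bar. Spots of 1 array lie close together (SD at most 0.114), while the array means of Cdkn1a run from 0.04 to 2.58.

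Cultures of 1 genotype differed widely for these genes. The 3 WT cultures spanned between 0.279 and 6.08 log2 units at the member probes, with a median of 2.05, against a median of 0.720 over all tested probes. The 3 p85α-/- cultures spanned between 0.409 and 5.56, with a median of 1.47 against 0.746. Among probes well above background in all 6 channels, the median WT span was 2.25 for 16 member probes and 0.893 for all 25559. The span of the WT cultures was larger than the mean ratio, sign ignored, at 17 of 19 member probes (89.5%), against 80.3% of all probes. The SD of the ratio exceeded the mean ratio, sign ignored, at 15 of 19 (78.9%), near the share over all probes (79.7%). No test was made of whether these spans differ from those of other genes.

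Of the 10 genes, 6 had several probes and 4 had 1. Probes of Ccne1, Cdk2, Cdk6 and Cdkn1b had mean ratios on both sides of 0. Of the 12 pairs of probes of the same gene, 5 had ratios of the same sign on all 3 arrays. The mean log2 ratios of 1 gene's probes lay apart by at most 2.42 for Ccnd2, 2.01 for Cdkn1b, 1.77 for Cdk2 and 1.72 for Cdk6, and by 0.796 for Ccne2 and 0.0996 for Ccne1. When the ratio of a gene was taken as the mean over its probes, Ccnd2 was at 1.58 and Cdk2 at 0.80, and no member gene passed (0 of 10, against 5.03% of all genes; 0 had an unadjusted p under 0.05 in limma).

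The genes around this module were read at the brightest probe of each gene. Over all gene names 43% were above 0 there, 3.14% passed as higher and 2.08% as lower, and the median log2 ratio was -0.07. All listed genes were found. For the member genes themselves the median was 0.11, with 5 above 0 and 5 below. Of 6 INK4 and other CDK inhibitors, 4 were above 0 and none passed (0). Their ratios ran from -0.44 ± 0.594 for Cdkn2c (p18; second probe 0.07) to 1.48 ± 1.90 for Cdkn2b (p15), both inhibitors of CDK4 and CDK6. Of 13 pocket proteins, E2F and DP factors, 10 were above 0 and 1 passed. That gene was E2f1, the activator of S phase genes, with ratios of 0.34, 1.44 and 1.56, a mean of 1.12 ± 0.671 (adjusted p = 0.908 in limma). A second E2f1 probe had ratios of 2.40, -1.16 and 1.11, a mean of 0.78 ± 1.80.

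Of 12 genes of CDK activation and inhibitor turnover, 8 were above 0 and 1 passed. Fbxw7, the ubiquitin ligase subunit that marks cyclin E for destruction, was higher on all arrays, with ratios of 3.53, 2.90 and 1.97, a mean of 2.80 ± 0.785 (adjusted p = 0.763 in limma). The second Fbxw7 probe had a mean of 0.59 ± 0.593. The RNA of cyclin E's own genes, given above, had mean ratios between -0.82 and 0.00092. Destruction of cyclin E acts on the protein, which these arrays do not measure. Of 16 replication and proliferation genes, 9 were above 0 and 1 passed. It was Mcm2, a subunit of the replicative helicase, with ratios of 2.61, 2.97 and 2.44, a mean of 2.68 ± 0.270 (adjusted p = 0.763 in limma). Mcm2 was well above background on 2 of 3 arrays for WT. Mki67, the proliferation marker, had ratios of 1.92, -1.68 and 1.56, a mean of 0.60 ± 1.99.

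None of the 12 S phase and mitotic cyclins and kinases passed (0), with 5 above 0 and 7 below. Their means ran from -0.45 ± 0.560 for Plk1 to 1.40 ± 1.74 for Aurka, both mitotic kinases. Of 12 upstream regulators of D cyclins, p21 and p27, 3 were above 0 and 9 below, and none passed (0). Their median was -0.43. Foxo1, a forkhead factor inhibited by AKT, was the highest at 2.47 ± 2.20, with its second probe at 0.94 ± 0.493. At its brightest probe Foxo1 was well above background on 2 of 3 arrays for WT. The lowest was Trp53, which induces Cdkn1a, at -1.24 ± 1.54, although the second Trp53 probe was at 0.10 ± 0.534. The targeted gene itself was not lower at its brightest probe. Pik3r1 had ratios of 1.48, -0.03 and 0.33 there, a mean of 0.59 ± 0.791, and its other 3 probes had means of 0.32, -0.04 and -0.58. Where these probes lie relative to the disrupted part of Pik3r1 is not given in the sources used here, so they do not check the labels. For mast cells grown from p85α-/- marrow, the study reports that a western blot, not shown there, found p85α lost.

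**Figure D4:**
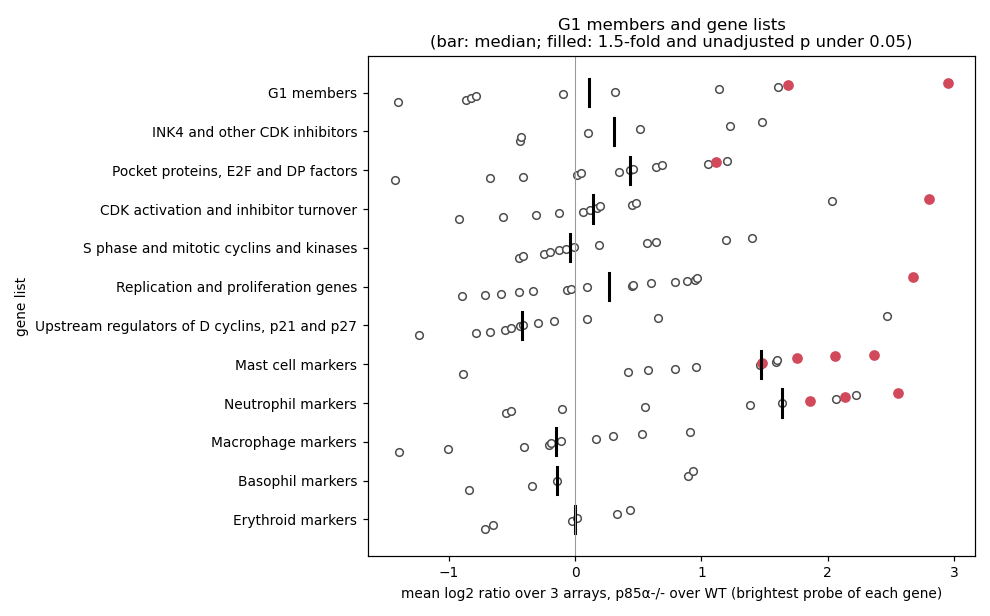
Mean log2 ratio of p85α-/- over WT over 3 arrays (horizontal axis) at the brightest probe of each gene, for the 10 G1 members and 11 gene lists (rows). Circles are genes, filled where the gene passed, and black bars are medians. The G1 members have a median of 0.11, and the mast cell and neutrophil markers have the highest medians, 1.47 and 1.64.

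In WT MCps 11 of 12 mast cell markers were well above background on all 3 arrays, and transcripts that serve as neutrophil markers were detected as well. Of 12 mast cell markers, 11 were above 0 and 4 passed as higher, against 43% and 3.14% over all gene names. Those that passed were Kit with 2.06 ± 0.556 (1.45, 2.19 and 2.54), Fcer1g (mean 1.76), Cma1 (2.37) and Srgn (1.48). Mcpt4 was below 0 (-0.89 ± 2.38). The markers other than Kit were chosen after their values were seen. All mast cell markers were well above background on all 3 p85α-/- arrays, and Ms4a2, the beta chain of the IgE receptor, was on 1 of 3 WT arrays. Their summed level, on the log2 scale, lay between 15.39 and 16.14 in WT and between 16.79 and 17.49 in p85α-/- MCps. Of 11 neutrophil granule and S100 markers, 8 were above 0 and 3 passed as higher (S100a8, S100a9 and Ctsg). Prtn3, Ltf and Ngp were below 0 (-0.51, -0.55 and -0.11). On all 3 WT arrays 9 of the 11 markers were well above background, and Lcn2 was on 0 of 3. Their summed level lay between 13.33 and 14.33 in WT and was 16.16, 13.45 and 17.85 in p85α-/- replicates 1, 2 and 3. Mpo, which did not pass (1.64 ± 4.52), made up between 14.6% and 83.4% of this sum. Without Mpo the sum lay between 11.85 and 12.45 in WT and was 14.74, 13.22 and 15.27 in p85α-/- MCps. The median ratio of the 11 markers was 1.67, 0.17 and 2.60 on arrays 1, 2 and 3. At the brightest probe of each member, Ccnd3 (3.58, -2.38 and 3.60), Cdk2 (2.43, 0.36 and 2.26) and Cdk4 (-0.66, -2.74 and -0.81) were lowest on array 2. Ccnd2 (2.13, 4.65 and 2.07), Cdkn1a (0.80, 2.58 and 0.04) and Cdkn1b (-1.56, 0.66 and -1.47) were highest on array 2. The same order held for Ccne1 (-1.28, 1.48 and -0.49) and Ccne2 (-2.09, 0.26 and -0.64). Ccnd1 (-2.05, -0.79 and 0.23) and the brightest Cdk6 probe (-1.69, 0.02 and 2.62) had neither order. The cells had been sorted for KIT and the IgE receptor. Whether the neutrophil marker transcripts came from other cells or from the sorted progenitors was not tested, nor was their part in the ratios of the members. The markers of macrophages (4 of 10 above 0, median -0.15), basophils (2 of 5, -0.14) and erythroid cells (3 of 6, -0.0043) did not pass at any gene (0).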

How the data were processed

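Gene expression of sorted, SCF-treated MCps was measured on 3 arrays, each with 1 WT (Cy3) and 1 p85α-/- culture (Cy5). The deposited intensity values are spot mean signals, median local backgrounds and processed signals from Agilent Feature Extraction 9.5.1.1, with flags for outlier spots and for spots well above background. Deposited beside them is the software's log10 ratio (Cy5 over Cy3). The authors' table of log10 ratios matches the scanner on all 40929 single-spot probes of replicate 1, but on 190 and 226 of replicates 2 and 3 (tolerance 1.5e-05), so it was not used. The study's methods name quantile normalization.

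Deposited intensity values were background corrected (normexp, offset 50), converted to log2 and quantile normalized over 6 channels (R 4.3.3, limma 3.58.1). Control and outlier spots were left out and spots of a probe averaged. The log2 ratio within arrays was tested against 0 with limma's moderated test, with Benjamini-Hochberg adjustment over 41157 probes. The procedure was tested on simulated data. Alternatives were the methods' t-test (both forms), dropping the pairing, leaving out a replicate, averaging a gene's probes, keeping outlier spots, filtering dim probes, median centring, loess with Aquantile, starting from the software's log ratio or processed signals, and skipping background subtraction. A gene's brightest probe is the one with the highest mean log2 intensity over the channels. Gene names and positions were read from the annotation in the array files. It names no build, so no exon or UTR is given. All members are named. Of each pathway list the genes that passed are named, at most 3 in each direction, or else the highest and lowest, with Kit, Mki67 and Pik3r1. Marker genes other than Kit and Mki67 were chosen after their values were seen. Members and lists were chosen with earlier results of these data known. The number of arrays limits precision. No per-sample column was left unmapped (0).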

Additional observations from a re-analysis of the deposited data

How the results depend on the processing

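Of 14 alternatives, none gave a member with an adjusted p under 0.05 (0; unadjusted, between 0 and 5 probes). The number of member probes that passed, 2 in the main processing, was 1 under loess with Aquantile normalization, 4 under median centring and 0 under the methods' t-test, unpaired or paired by array. Of all probes 3.97%, 6.56%, 2.73% and 1.99% passed there, against 4.44% in the main processing. It was between 1 and 5 when a replicate was left out, with 5 (3 higher, 2 lower) without replicate 2, where 7.69% of all probes passed, and 1 without replicate 1 or 3 (3.78% and 4.25% of all probes). When a gene's probes were averaged 0 member genes passed in place of 2 (5.03% of all genes). Probes at which the genotypes did not overlap, 1 in the main processing, were 0 under loess (7.28% of all probes, against 10.5%) and between 5 and 8 with 2 arrays, where between 30.6% and 39.4% of all probes did not overlap. Without the replicate block, that is without the pairing of cultures by array, 0 member probes and 4.4% of all probes passed. Deviations of same-numbered cultures from their genotype's mean correlated at 0.0642, -0.0572 and -0.0211. The study describes its mice as pairs without saying what a pair shared, and same-numbered cultures shared an array.

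Median centring moved the median ratio of all probes from -0.05 to 0.09 and the share of higher among passing probes from 62.6% to 91.4%. Signs turned under median centring for the brightest probes of Ccne1 (0.55) and Cdkn1b (0.33) and the second Cdk2 probe (0.041), under loess for the second probes of Cdk2 (0.0066) and Ccne2 (0.091), with the software's log ratio for the second probes of Ccne2 (0.083) and Cdk6 (-0.026), without background subtraction for the second Ccne1 probe (-0.0041), and with the mean over probes for Cdk6 (-0.36). When a replicate was left out, the mean ratio crossed 0 for the dimmer Ccnd2 probes (-0.0642 to 1.21 and -0.0609 to 2.51), both Ccne1 probes (-0.89 to 0.49 and -0.11 to 0.13), the second Ccne2 probe (-0.17 to 0.24), the second Cdk2 probe (-0.27 to 0.0708) and the Cdk6 probes (-0.83 to 1.32, -1.22 to 1.35 and -2.22 to 0.24). The cause was not tested. The brightest Ccnd2 and Cdk2 probes stayed above 0 under the 13 alternatives run on probes, with calls lost in 3 and 7, and the means over each gene's probes (1.58 and 0.80) did not pass. A filter on dim probes removed the second Ccne2 probe. The authors' table was not run as an alternative.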
